A study of Mus musculus with 12 samples.

Results

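The Ms4a genes encode small membrane proteins that cross the membrane several times, and 10 of them are described here: Ms4a1, Ms4a2, Ms4a4a, Ms4a4b, Ms4a4c, Ms4a4d, Ms4a6b, Ms4a6c, Ms4a6d and Ms4a7. They were chosen by their levels across the 4 groups of this study and taken by symbol from the platform annotation of the array, with the brightest probe set of each gene, and each of the 10 had a single probe set. They are 10 of the 19937 genes measured, and another 9 Ms4a genes were on the array. Their differences between groups are therefore given as a description, with standard errors and without p-values. Several members of the family mark a blood cell lineage. Ms4a1 encodes CD20 of B cells, Ms4a2 the beta subunit of the high-affinity IgE receptor of mast cells and basophils, and Ms4a4b is known from T and NK cells. Ms4a4c is an interferon-inducible gene of myeloid cells, and Ms4a4a, Ms4a6b, Ms4a6c, Ms4a6d and Ms4a7 are known from monocytes and macrophages.

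The samples were RNA from Lewis lung carcinoma, a transplantable mouse tumour, resected from the lungs of female C57BL/6 mice and hybridised to 12 Affymetrix arrays. The hosts were wild type or RelA/p65 deficient, where RelA/p65 is a DNA-binding part of NF-kB, and were exposed either to air or to smoke. This gave 4 groups of 3 arrays: wild type air, wild type smoke, deficient air and deficient smoke. Neither the age of the hosts, the length of exposure nor the cells in which RelA/p65 was missing is stated in the labels, while the series title speaks of myeloid cells. The deficient arrays are named here by their label, because Rela itself was not lower in them: its log2 expression was 9.42 ± 0.04 in deficient air and 9.31 ± 0.05 in deficient smoke, against 9.22 ± 0.06 and 9.08 ± 0.10 in the wild type groups (mean ± SD, n = 3). Nothing in the labels says that the 3 arrays of a group are 3 animals, so errors and p-values cover the spread between arrays, which could be technical. In whole tissue, fewer cells of a type and less RNA per cell cannot be told apart.

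Levels are log2 expression, and a difference of 1 is a doubling. Array medians over all genes lay between 7.26 and 7.51, and arrays of a group correlated with r of 0.990 to 0.998 across genes. The tissue held bright lung genes as well as tumour: the mean over 12 lung epithelial genes was 10.70 to 10.90 in wild type air, 8.32 to 8.38 in wild type smoke, 11.45 to 11.50 in deficient air and 11.40 to 11.54 in deficient smoke. The mean over 9 mitotic genes was 9.61 to 9.78, 9.996 to 10.11, 8.48 to 8.72 and 8.34 to 8.90 in the same order. Wild type air replicate 1 stood apart from the other wild type air arrays in interferon-inducible genes, with a mean over 16 of them of 7.97 against 7.03 and 7.13, and the members it moved most are given with and without it, while list counts and medians include it.

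The family sits together on chromosome 19, where 21 Ms4a genes and 1 other gene follow each other in the RefSeq gene table, and 9 of the 10 lie in the stretch that runs from Ms4a7 to Ms4a2. The upstream sequences of 2 pairs of nearby genes are shown because the genes of each pair are close relatives whose levels can be set side by side. Ms4a4c and Ms4a4b are adjacent, while the 1 other gene lies between Ms4a6c and Ms4a6b. They are the 250 bases before the annotated start in RefSeq (GRCm38.p6), 5′ to 3′ on the plus strand, for Ms4a6b (chr19:11518309-11518558), Ms4a6c (chr19:11469118-11469367), Ms4a4b (chr19:11443308-11443557) and Ms4a4c (chr19:11407411-11407660). Capitals mark the longest run of bases shared within each pair.
Ms4a6b: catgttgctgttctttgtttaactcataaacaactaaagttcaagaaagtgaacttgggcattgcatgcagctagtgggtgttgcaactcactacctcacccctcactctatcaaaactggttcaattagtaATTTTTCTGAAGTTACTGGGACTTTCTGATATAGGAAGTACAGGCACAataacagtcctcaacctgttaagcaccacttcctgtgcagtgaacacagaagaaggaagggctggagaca
Ms4a6c: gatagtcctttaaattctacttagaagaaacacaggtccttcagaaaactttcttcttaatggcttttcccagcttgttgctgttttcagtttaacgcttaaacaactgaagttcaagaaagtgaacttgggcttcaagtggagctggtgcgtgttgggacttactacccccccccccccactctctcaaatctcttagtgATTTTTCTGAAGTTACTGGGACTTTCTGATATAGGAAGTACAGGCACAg
Ms4a4b: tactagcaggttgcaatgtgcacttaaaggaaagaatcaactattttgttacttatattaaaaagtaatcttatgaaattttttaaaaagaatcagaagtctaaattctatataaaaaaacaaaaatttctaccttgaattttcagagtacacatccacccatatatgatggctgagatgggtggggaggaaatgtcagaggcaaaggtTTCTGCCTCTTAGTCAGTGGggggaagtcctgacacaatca
Ms4a4c: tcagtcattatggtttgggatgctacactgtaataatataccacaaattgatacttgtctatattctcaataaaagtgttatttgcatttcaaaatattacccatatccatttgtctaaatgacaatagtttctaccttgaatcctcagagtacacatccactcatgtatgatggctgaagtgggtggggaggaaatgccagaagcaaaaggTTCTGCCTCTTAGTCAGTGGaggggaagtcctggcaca
The shared run was 48 bases long in Ms4a6b and Ms4a6c and began 118 and 49 bases before their starts. In Ms4a4b and Ms4a4c it was 20 bases long and began 41 and 38 bases before the starts. No other pair of the 8 members with a RefSeq promoter entry shared more than 9 bases in a row. A search of both strands for GGAAGT, a core of ETS factor sites, found it in 6 of the 8 members (Ms4a4b, Ms4a4c, Ms4a4d, Ms4a6b, Ms4a6c and Ms4a7) and in 19.7% of all 32851 promoter windows of this length. In Ms4a6b and Ms4a6c 1 copy lies inside the shared run. The PU.1 core GAGGAA was found in Ms4a4b and Ms4a4c (23.3% of all windows), the interferon response element (TTTC, any 2 bases, then TTTC) in 0 of the 8 (2.98%), and the NF-kB motif in Ms4a4a, 247 bases before its start (7.25%). GGAAGT and GAGGAA can overlap each other, and these matches describe letters in the windows and nothing more.

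Across the 10 genes, smoke went with higher levels of the monocyte and macrophage members and lower levels of Ms4a1, Ms4a4b and Ms4a4d in wild type hosts, and with lower or similar levels in deficient hosts. In wild type hosts 8 of the 10 were called with smoke in the limma fit over all genes (adjusted p under 0.05), where 29.0% of all genes were: 5 were higher and 3 lower, against 15.0% and 14.0% of all genes. The smoke and air arrays did not overlap for the same numbers, 5 higher and 3 lower, against 20.8% and 16.2% of all genes (36.9% in either direction), and the median difference of the 10 was 0.61 against 0.08 over all genes.

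In deficient hosts 6 of the 10 were called with smoke (2.41% of all genes), 0 higher and 6 lower (0.692% and 1.72%). The arrays did not overlap for 0 higher and 8 lower members (8.97% and 13.7%, or 22.7% in all), and the median was -0.53 against -0.00. Without deficient air replicate 3 the number called was 3. In air 10 of the 10 were called between genotypes (38.5%), all higher in the deficient arrays (20.5% higher and 18.0% lower over all genes). The arrays did not overlap for 9 higher and 0 lower (25.6% and 26.3%, or 51.9% in all), and the median was 1.20 against -0.03. Under smoke 7 were called between genotypes (59.6%), 4 higher and 3 lower (22.7% and 37.0%). The arrays did not overlap for 4 higher and 4 lower (23.6% and 37.6%, or 61.3% in all), and the median was -0.07 against -0.14. The smoke difference itself was called as not equal between genotypes for 8 members (14.6%), with a higher signed value in the deficient arrays for 2, whose wild type difference was below 0, and a lower one for 6 (8.89% and 5.70%), with a median of -1.10 against -0.08. Since these contrasts chose the genes, nothing is read from the counts. The 2 smoke comparisons share no array, whereas each genotype comparison shares its arrays with them.

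**Figure D1:**
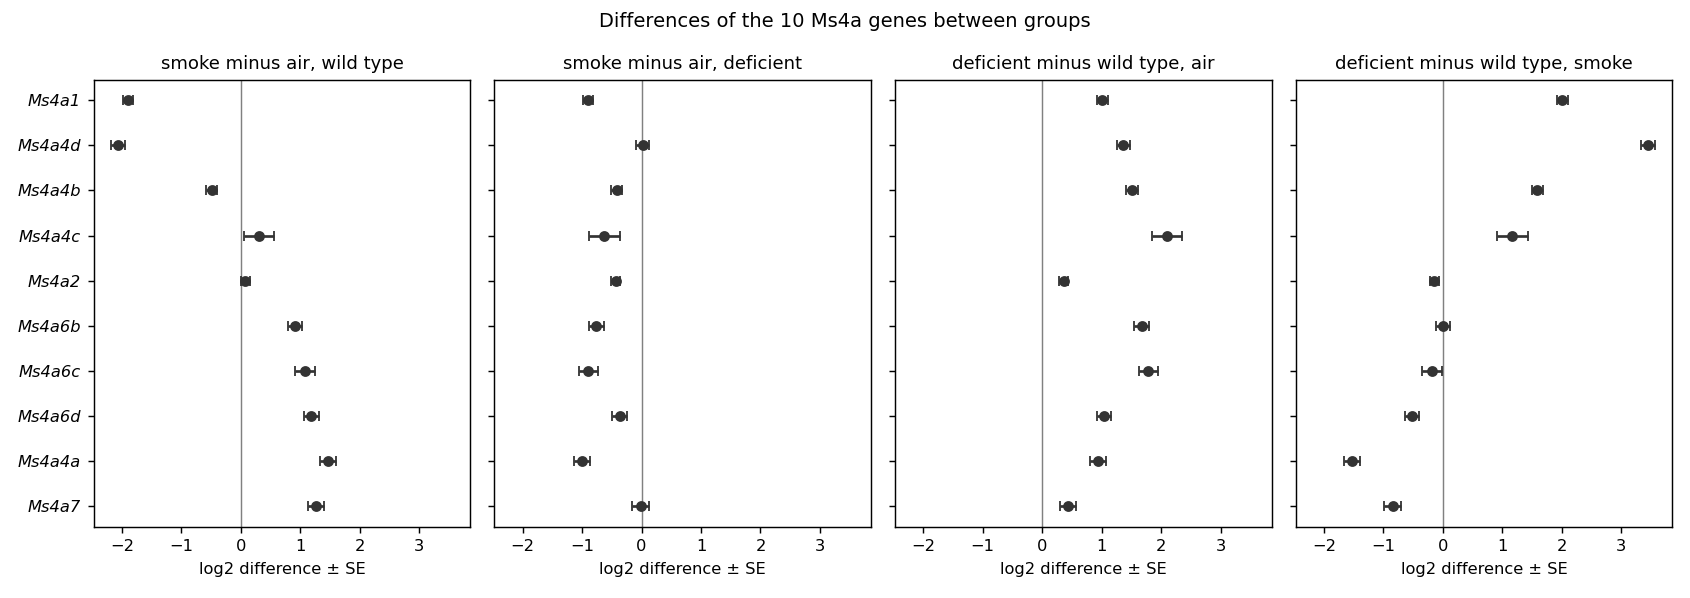
Log2 difference ± SE (limma, 12 arrays) of each of the 10 Ms4a genes in the 4 comparisons between groups. Ms4a4d and Ms4a1 lie lowest in the first panel at -2.07 and -1.90, Ms4a4a lies highest there at 1.46, every gene lies above 0 in the third panel, and Ms4a4d reaches 3.45 in the last.

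Ms4a1 had its highest level in deficient air and its lowest in wild type smoke. The 3 arrays read 6.86, 6.87 and 7.14 in wild type air, 4.99, 5.03 and 5.16 in wild type smoke, 7.96, 8.0 and 7.95 in deficient air and 7.13, 7.15 and 6.92 in deficient smoke. Wild type air and deficient smoke overlapped, and the other groups stood apart from each other. The smoke difference was -1.90 ± 0.09 (3.72-fold lower) in wild type and -0.90 ± 0.09 (1.87-fold lower) in deficient hosts, so that the smoke difference was 1.00 ± 0.13 less negative in the deficient arrays. The deficient arrays were higher by 1.01 ± 0.09 in air and by 2.01 ± 0.09 (4.03-fold) under smoke.

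Of 13 other B cell genes measured, smoke in wild type hosts lowered 6 and raised 0 (median -0.32, lowest -1.07), smoke in deficient hosts lowered 4 and raised 0 (median -0.35), and the deficient arrays were higher for 12 in air (median 0.67) and for 12 under smoke (median 0.58). Counts for this list and those below are of called genes, to be set beside the shares of all genes given above. Cd79a and Cd79b encode the signalling chains of the B cell receptor. In wild type hosts Cd79a fell by 1.07 ± 0.21 (adjusted p = 0.00168, limma) and Cd79b by 1.03 ± 0.10 (adjusted p = 2.78e-06) with smoke, and in deficient hosts Cd79b fell by 0.58 ± 0.10 (adjusted p = 0.00448) while Cd79a differed by -0.42 ± 0.21 (adjusted p = 0.526). Set against the mean of the B cell list in the same array, a comparison chosen after the values were seen, Ms4a1 still differed by -1.48 with smoke in wild type hosts and by -0.62 in deficient hosts, without overlap of the groups. Lung epithelial genes moved beside Ms4a1 in wild type hosts, where 11 of 12 fell (median -2.36), but not in deficient hosts, where 0 of 12 were called (median -0.02, from -0.13 to 0.11). Whether they have a part in the level of Ms4a1 was not tested.

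Ms4a2 was the dimmest of the 10 and the single one that did not reach a log2 level of 6 in 3 arrays. It read 4.33, 4.34 and 4.41 in wild type air, 4.53, 4.32 and 4.46 in wild type smoke, 4.68, 4.71 and 4.78 in deficient air and 4.23, 4.20 and 4.44 in deficient smoke. Only deficient air stood apart from the rest. Ms4a2 was higher there than in wild type air by 0.36 ± 0.08, and its smoke difference was -0.44 ± 0.08 in deficient hosts (-0.41 and not called without deficient air replicate 3), whereas the difference in wild type hosts was 0.07 ± 0.08 (95% interval -0.10 to 0.24). Its partner chain Fcer1a, also dim (4.22 to 4.71), rose by 0.36 ± 0.09 with smoke in wild type hosts (adjusted p = 0.00849) and was higher in deficient air by 0.34 ± 0.09 (adjusted p = 0.0063). Under smoke Fcer1a differed between genotypes by -0.26 ± 0.09 (adjusted p = 0.0224, limma). That call held under 14 of 19 other settings, with values of -0.40 to -0.09 over all settings. Among others, it was lost without wild type smoke replicate 2 or deficient smoke replicate 1 or 2 (-0.26 to -0.17). The smoke difference of Fcer1a in deficient hosts was -0.24 ± 0.09 (adjusted p = 0.256). The shared gamma chain Fcer1g, used by Fc receptors of many myeloid cells, was far brighter in every group (10.01 to 11.71) and rose by 0.81 ± 0.10 with smoke in wild type hosts (adjusted p = 3.84e-05), fell by 0.49 ± 0.10 in deficient hosts (adjusted p = 0.0177) and was higher in deficient air by 1.46 ± 0.10 (adjusted p = 2.02e-07). Of 14 mast cell and basophil genes, Fcer1a and Fcer1g among them, smoke in wild type hosts raised 5 and lowered 2 (15.0% and 14.0% of all genes). Smoke in deficient hosts raised 0 and lowered 1, which was Fcer1g (0.692% and 1.72%). In the deficient arrays 7 were higher and 0 lower in air (20.5% and 18.0%), and 3 higher and 6 lower under smoke (22.7% and 37.0%). The 3 higher under smoke were Kit, Gata2 and Hdc (2.10, 1.01 and 1.19). The 6 lower were Hpgds, Fcer1a, Cpa3, Tpsb2, Tpsab1 and Mcpt8 (-1.04 to -0.26).

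Ms4a4b followed the genotype label. The arrays read 5.89, 5.61 and 6.00 in wild type air, 5.46, 5.28 and 5.28 in wild type smoke, 7.27, 7.39 and 7.36 in deficient air and 6.88, 6.88 and 7.02 in deficient smoke, and no group overlapped another. Ms4a4b in the deficient arrays was higher by 1.51 ± 0.09 in air and by 1.58 ± 0.09 (3.00-fold) under smoke. Its smoke difference was -0.49 ± 0.09 in wild type and -0.41 ± 0.09 in deficient hosts, which leaves 0.08 ± 0.13 between them. The call in deficient hosts was lost without any 1 of the 6 deficient arrays (-0.46 to -0.39) or without wild type smoke replicate 2. The T cell receptor gene Cd3g was also higher in the deficient arrays, by 1.83 ± 0.08 in air and 2.44 ± 0.08 under smoke (adjusted p = 1.01e-08 and 2.18e-11). Its air difference was the largest of the T cell list. Unlike in Ms4a4b, the smoke difference of Cd3g was not equal between genotypes (0.61 ± 0.11, adjusted p = 0.00198, limma). Nkg7, a granule gene of cytotoxic cells, was higher by 2.32 ± 0.08 and 2.45 ± 0.08 (adjusted p = 1.33e-09 and 1.21e-11). Of 13 T cell genes 12 were higher in the deficient arrays in air and 11 under smoke, with 0 lower in both (medians 0.76 and 0.61). Of 9 NK cell genes 9 and 8 were higher (medians 1.51 and 1.45). With smoke, 3 T cell and 2 NK cell genes fell in wild type hosts, where 14.0% of all genes did (29.0% called in either direction). The list medians there were -0.08 and -0.14, with 5 T cell and 2 NK cell genes above 0. In deficient hosts 2 and 5 fell, where 1.72% of all genes did. In both genotypes 0 genes of these lists were raised.

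Ms4a4c varied most among arrays of a group. It read 8.72, 7.57 and 7.37 in wild type air, 8.43, 8.09 and 8.06 in wild type smoke, 9.87, 10.01 and 10.08 in deficient air and 9.19, 9.37 and 9.52 in deficient smoke. The wild type groups overlapped because of the first wild type air array, and both deficient groups lay above them and apart from each other. Ms4a4c in the deficient arrays was higher by 2.10 ± 0.26 (4.29-fold) in air and by 1.17 ± 0.26 under smoke. Smoke went with 0.31 ± 0.26 (95% interval -0.25 to 0.86) in wild type hosts and -0.63 ± 0.26 in deficient hosts. Without wild type air replicate 1 the wild type difference was 0.72 and was called, the deficient difference, still -0.63, was also called, and the air difference between genotypes was 2.52.

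The interferon-inducible list had the same outlying array as Ms4a4c. Of its 16 genes all were higher in the deficient arrays, in air (median 1.97) and under smoke (median 1.71). Smoke lowered 2 and raised 0 in wild type hosts (14.0% and 15.0% of all genes). In deficient hosts smoke lowered 6 and raised 1 (1.72% and 0.692%). Ido1, which degrades tryptophan, and Ly6i were higher in deficient air by 3.31 ± 0.16 and 3.74 ± 0.18 (adjusted p = 1.66e-08 and 2.10e-08). Set against the mean of that list in the same array, Ms4a4c differed by -0.04 between genotypes in air, with overlap, and by -0.47 under smoke, without overlap.

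**Figure D2:**
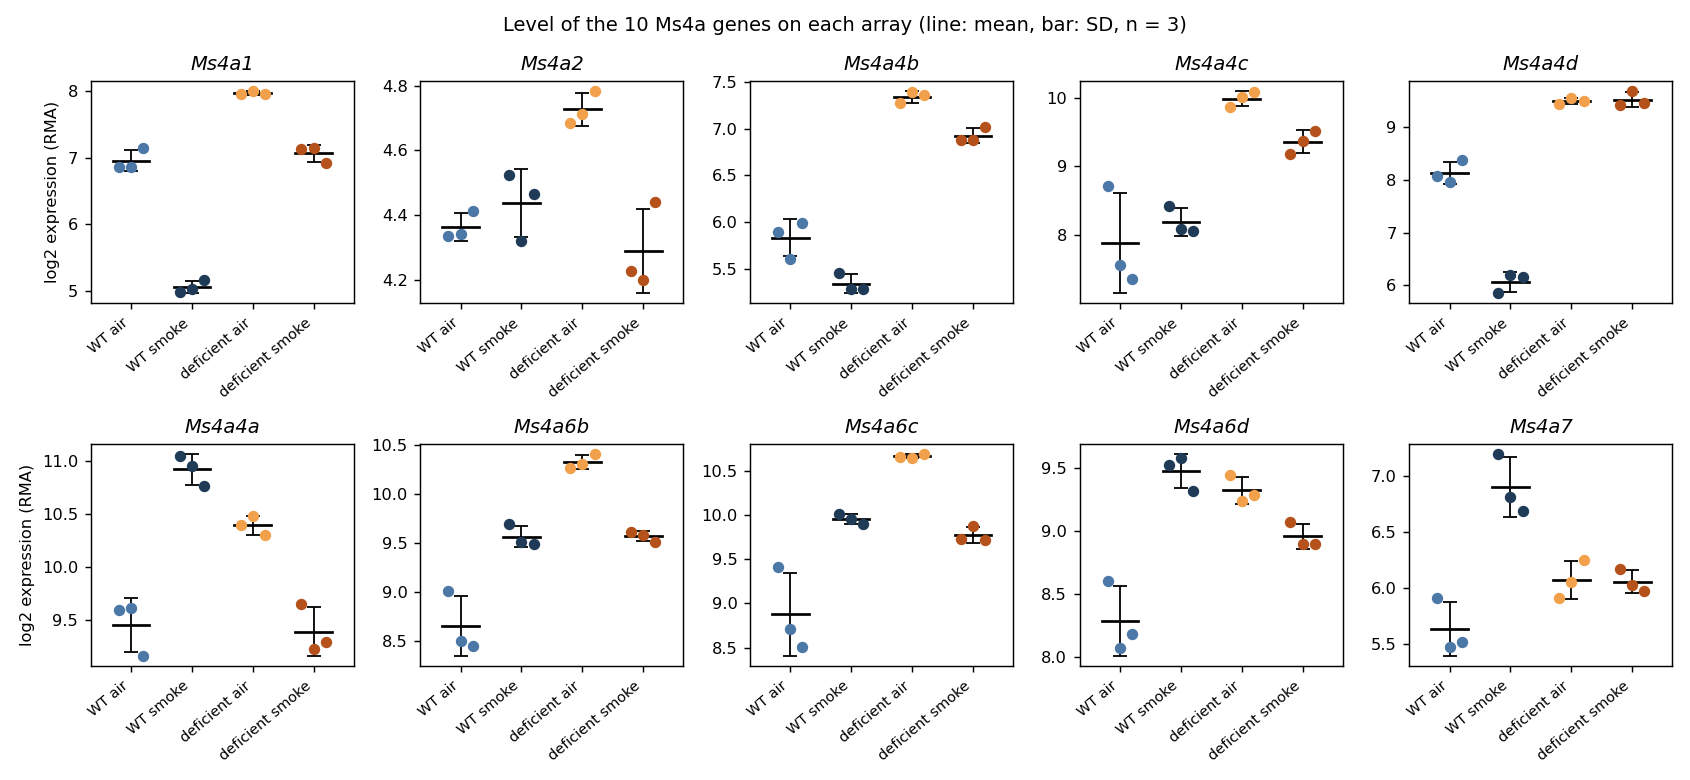
Log2 expression of each of the 10 genes on every array, with a point per array, a line at the group mean and a bar of 1 SD (n = 3), on a scale of its own for each gene. In Ms4a4c, Ms4a6b and Ms4a6c the first wild type air array lies above the other arrays of its group, at 8.72, 9.01 and 9.41.

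Ms4a6b and Ms4a6c, whose upstream sequences share the 48 bases printed above, had nearly the same profile. Ms4a6b read 9.01, 8.50 and 8.45 in wild type air, 9.69, 9.51 and 9.49 in wild type smoke, 10.26, 10.30 and 10.40 in deficient air and 9.61, 9.58 and 9.51 in deficient smoke. Ms4a6c read 9.41, 8.71 and 8.51, then 10.01, 9.95 and 9.90, then 10.66, 10.65 and 10.69, then 9.73, 9.87 and 9.72 in the same order. In both genes wild type air was lowest and deficient air highest, apart from every other group. The smoke groups overlapped in Ms4a6b and stood apart by a narrow gap in Ms4a6c.

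With smoke Ms4a6b differed by 0.91 ± 0.12 in wild type hosts and by -0.76 ± 0.12 in deficient hosts. Ms4a6c differed by 1.08 ± 0.16 and -0.89 ± 0.16, the latter not called without deficient air replicate 3 or deficient smoke replicate 1 or 3 (-0.88 to -0.86). The smoke difference in deficient minus that in wild type arrays was -1.67 ± 0.17 for Ms4a6b and -1.97 ± 0.23 for Ms4a6c. In air the deficient arrays were higher by 1.67 ± 0.12 (3.18-fold) and 1.79 ± 0.16 (3.45-fold). Under smoke the genotypes differed by 0.00 ± 0.12 (95% interval -0.26 to 0.26) and -0.18 ± 0.16 (-0.54 to 0.17). Without wild type air replicate 1 the smoke differences in wild type hosts were 1.09 and 1.34, the genotype differences in air were 1.85 and 2.05, and the Ms4a6c difference under smoke, still -0.18, was called.

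Ms4a6d, Ms4a4a and Ms4a7 were highest under smoke in wild type hosts instead. Ms4a6d read 8.60, 8.07 and 8.18 in wild type air, 9.52, 9.58 and 9.32 in wild type smoke, 9.44, 9.24 and 9.29 in deficient air and 9.07, 8.90 and 8.90 in deficient smoke. Wild type smoke and deficient air overlapped, and the other groups stood apart. Ms4a6d was higher with smoke by 1.19 ± 0.12 in wild type hosts, and the smoke difference in deficient hosts was -0.37 ± 0.12. Between genotypes it differed by 1.03 ± 0.12 in air and by -0.52 ± 0.12 under smoke. Without wild type air replicate 1 the wild type smoke difference was 1.34 and the air difference between genotypes 1.19.

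Ms4a4a had the widest turn between genotypes. It read 9.60, 9.62 and 9.17 in wild type air, 11.05, 10.95 and 10.77 in wild type smoke, 10.40, 10.48 and 10.31 in deficient air and 9.66, 9.23 and 9.29 in deficient smoke. Wild type air and deficient smoke overlapped at the bottom, with deficient air above them and wild type smoke on top. The smoke difference was 1.46 ± 0.13 (2.76-fold higher) in wild type hosts and -1.001 ± 0.13 (2.00-fold lower) in deficient hosts, a difference between genotypes of -2.47 ± 0.19. Deficient and wild type arrays differed by 0.94 ± 0.13 in air and by -1.53 ± 0.13 under smoke.

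Ms4a7 set wild type smoke apart from the other 3 groups. It read 5.91, 5.47 and 5.52 in wild type air, 7.20, 6.82 and 6.69 in wild type smoke, 5.91, 6.05 and 6.25 in deficient air and 6.17, 6.03 and 5.97 in deficient smoke. The deficient groups overlapped each other, and deficient air also overlapped wild type air. With smoke Ms4a7 was higher by 1.26 ± 0.14 (2.40-fold) in wild type hosts, while the difference in deficient hosts was -0.01 ± 0.14 (95% interval -0.32 to 0.29). Deficient and wild type arrays differed by 0.43 ± 0.14 in air and by -0.84 ± 0.14 under smoke. The air call for Ms4a7 was lost without wild type air replicate 2 or 3 or deficient air replicate 2 or 3, with differences of 0.34 to 0.44, and also with median centring (0.36) and quantile normalization (0.42).

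Macrophage and monocyte genes outside the family were measured beside these 5 members. Of 17 macrophage genes, smoke in wild type hosts raised 14 and lowered 0 (median 0.87), and smoke in deficient hosts raised 0 and lowered 3 (median -0.03). The deficient arrays had 12 higher and 2 lower in air (median 0.45) and 3 higher and 11 lower under smoke (median -0.58). Csf1r, the receptor for the macrophage growth factor, rose by 0.65 ± 0.06 with smoke in wild type hosts (adjusted p = 1.56e-06), fell by 0.56 ± 0.06 in deficient hosts (adjusted p = 1.16e-04) and was higher in deficient air by 1.23 ± 0.06 (adjusted p = 1.53e-08). The mannose receptor Mrc1 rose by 1.11 ± 0.10 with smoke in wild type hosts (adjusted p = 1.56e-06), and in deficient hosts its difference was 0.18 ± 0.10 (adjusted p = 0.621). The folate receptor Folr2 differed by -1.82 ± 0.12 between genotypes under smoke (adjusted p = 4.30e-08). There Csf1r differed by 0.01 ± 0.06 (adjusted p = 0.846, limma) and Mrc1 by -0.82 ± 0.10 (adjusted p = 9.7e-06). In air, unlike Csf1r, Folr2 differed between genotypes by -0.37 ± 0.12 (adjusted p = 0.0329) and Mrc1 by 0.11 ± 0.10 (adjusted p = 0.424). The Folr2 call in air held under 14 of 20 other settings. Of 10 monocyte genes, smoke raised 3 and lowered 2 in wild type hosts (median 0.03) and lowered 7 and raised 0 in deficient hosts (median -0.92). In the deficient arrays 10 were higher in air (median 1.61), and 8 were higher and 1 lower under smoke (median 0.71).

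Set against the mean of the macrophage list in the same array, the 5 members split, again in a comparison chosen after the values were seen. In air Ms4a6b and Ms4a6c were higher in the deficient arrays by 1.25 and 1.36 beyond the list, Ms4a6d and Ms4a4a by 0.61 and 0.51, and Ms4a7 by 0.01, with overlap in Ms4a7 alone. Under smoke Ms4a4a and Ms4a7 differed beyond the list by -0.95 and -0.26, Ms4a6b and Ms4a6c by 0.58 and 0.40, and Ms4a6d by 0.06 with overlap. With smoke in wild type hosts Ms4a4a and Ms4a7 were higher beyond the list by 0.63 and 0.43 without overlap, whereas Ms4a6b, Ms4a6c and Ms4a6d differed by 0.08, 0.24 and 0.35 with overlap. With smoke in deficient hosts Ms4a4a, Ms4a6b, Ms4a6c and Ms4a6d differed beyond the list by -0.83, -0.59, -0.72 and -0.20 without overlap, and Ms4a7 by 0.16 with overlap. These values depend on the list chosen. Against the interferon-inducible list Ms4a6b and Ms4a6c differed by -0.47 and -0.36 between genotypes in air, without overlap. The monocyte list mean was 7.76 in wild type air, 9.69 in deficient air and 8.68 in deficient smoke, and the members were not set against it.

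**Figure D3:**
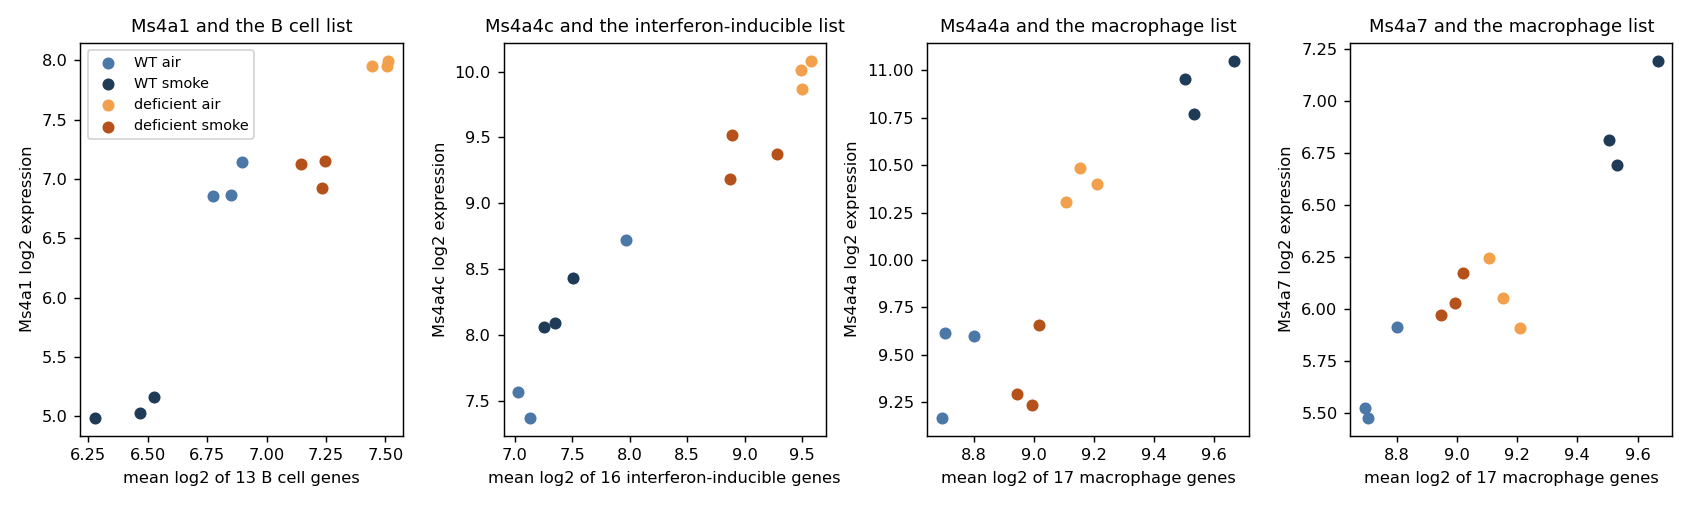
Log2 expression of Ms4a1, Ms4a4c, Ms4a4a and Ms4a7 on each of the 12 arrays against the mean log2 expression of a marker list on the same array, coloured by group. The first wild type air array has the highest interferon mean of its group (7.97) and the highest Ms4a4c level (8.72), and deficient air lies above deficient smoke in Ms4a4a at macrophage means of 9.11 to 9.21 and 8.95 to 9.02.

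Ms4a4d gave the largest single difference of the 10. It read 8.07, 7.97 and 8.37 in wild type air, 5.85, 6.20 and 6.15 in wild type smoke, 9.44, 9.56 and 9.50 in deficient air and 9.42, 9.69 and 9.46 in deficient smoke. Wild type smoke lay lowest and wild type air next, and the deficient groups overlapped each other above both. The smoke difference was -2.07 ± 0.12 (4.20-fold lower) in wild type hosts, and the difference in deficient hosts was 0.02 ± 0.12 (95% interval -0.23 to 0.27). The deficient arrays were higher by 1.37 ± 0.12 in air and by 3.45 ± 0.12 (11.0-fold) under smoke. The means of the lung epithelial, endothelial and fibroblast lists were also lowest in wild type smoke and next in wild type air. In all of these lists both deficient groups lay above and overlapped. Of the 9 fibroblast genes 5 fell and 3 rose with smoke in wild type hosts, and 0 were called in deficient hosts. The club cell enzyme Cyp2f2 fell by 5.35 ± 0.08 with smoke in wild type hosts (adjusted p = 2.15e-13) and differed by -0.13 ± 0.08 in deficient hosts (adjusted p = 0.689), and the endothelial receptor Tek fell by 2.62 ± 0.07 (adjusted p = 2.10e-11) and differed by 0.05 ± 0.07 (adjusted p = 0.978). All 8 endothelial genes fell with smoke in wild type hosts and 0 were called in deficient hosts. The part of these tissues in the level of Ms4a4d was not tested.

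The other 9 Ms4a genes on the array changed little apart from Ms4a8a, but most of them were dim. Only 3 of the 9, Ms4a8a, Ms4a10 and Ms4a15, reached a log2 level of 6 in 3 arrays. Whether the dim genes were expressed at all was not tested. Ms4a8a read 7.74, 7.73 and 7.82 in wild type air, 8.16, 7.87 and 7.98 in wild type smoke, 8.74, 8.87 and 8.67 in deficient air and 9.06, 9.08 and 9.20 in deficient smoke, with no overlap between groups. Its level in the deficient arrays exceeded that in wild type by 1.00 ± 0.08 in air (adjusted p = 8.16e-07, limma) and by 1.11 ± 0.08 under smoke (adjusted p = 9.96e-08). With smoke it rose by 0.24 ± 0.08 in wild type hosts (adjusted p = 0.0423) and by 0.35 ± 0.08 in deficient hosts (adjusted p = 0.0425), and its difference between genotypes in the smoke effect was 0.11 ± 0.12 (adjusted p = 0.574). The smoke call in wild type hosts was lost without any 1 of 9 of the 12 arrays, and that in deficient hosts without any 1 of the 6 deficient arrays or the 3 wild type air arrays. These calls held under 8 and 9 of 20 other settings.

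The dim genes Ms4a13 and Ms4a5, at 4.87 to 5.29 and 3.61 to 4.13, read higher by 0.26 ± 0.07 and 0.26 ± 0.09 with smoke in wild type hosts (adjusted p = 0.0128 and 0.0468). Under smoke Ms4a10 and Ms4a13 differed between genotypes by -0.37 ± 0.12 and -0.24 ± 0.07 (adjusted p = 0.0156 and 0.0104). The calls of Ms4a13 and Ms4a5 were lost with quantile normalization, and the smoke call of Ms4a13 also without wild type air replicate 3 (0.25) or wild type smoke replicate 3 (0.20). The smoke call in wild type hosts held under 15 of 19 other settings for Ms4a13 and under 6 of 19 for Ms4a5. The call of Ms4a10 held under 17 of 20 other settings and was lost, among others, without wild type smoke replicate 3 (-0.25) or deficient smoke replicate 2 (-0.27). Ms4a3, a gene of granulocyte and monocyte progenitors, lay between 5.06 and 5.44 and passed in no comparison, with adjusted p of 0.325 to 0.993. Ms4a12, Ms4a15, Ms4a19 and Ms4a20 did not pass either. The smoke effect differed between genotypes for 0 of the 9 (14.6% of all genes).

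**Figure D4:**
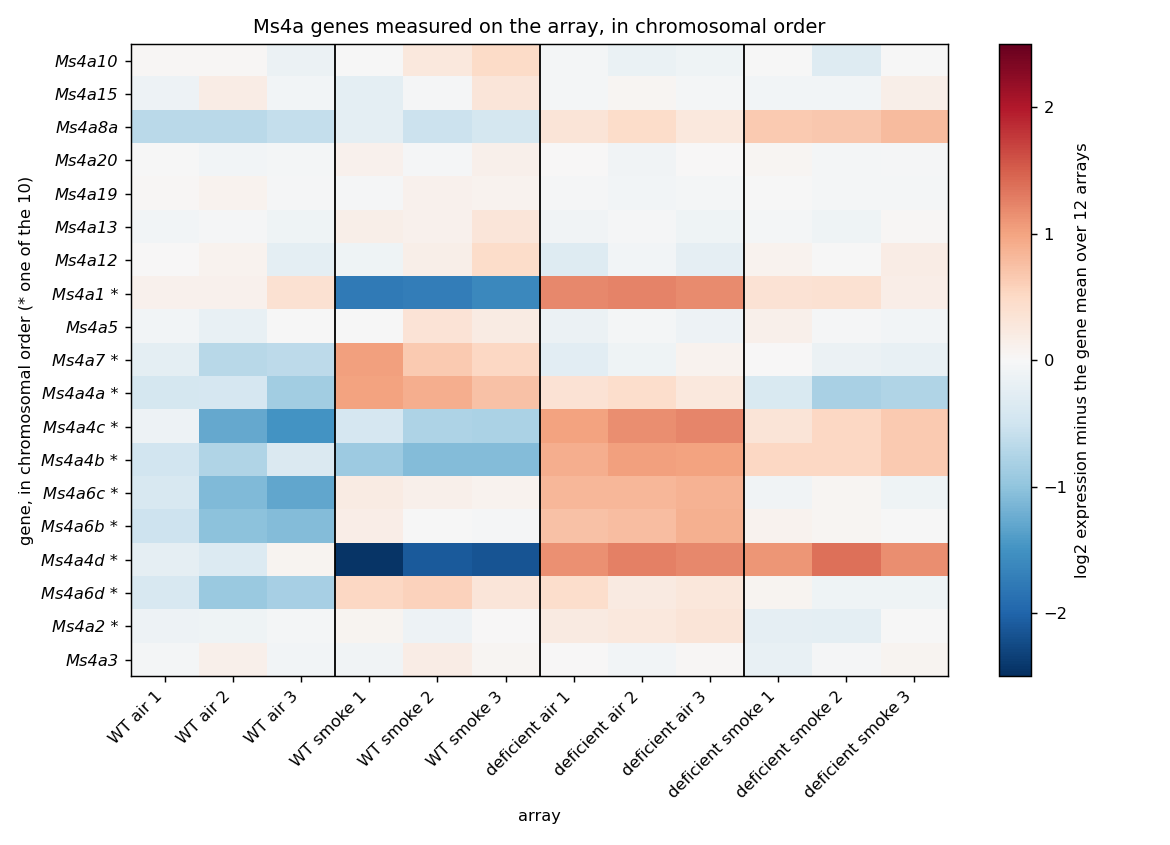
Log2 expression of the 19 Ms4a genes measured, each minus its mean over the 12 arrays, with genes in their order along the chromosome and arrays by group. The largest departures lie in Ms4a1 and in the stretch from Ms4a7 to Ms4a6d, and next to Ms4a1 the genes Ms4a12 and Ms4a5 stay near their means, with levels of 4.81 to 5.59 and 3.61 to 4.13.

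The genes most like each member were found by Pearson correlation over the 12 arrays among 3802 non-member genes with a range of at least 1. The arrays fall into 4 groups, so a high r mostly repeats the order of the group means. It is a description, and for the top gene the correlation of deviations from group means is given as well. Ms4a1 was nearest to Mfap4, a microfibril protein gene (r = 0.990, rho = 0.944, within groups 0.705), and to Scgb1c1, a secretoglobin (r = 0.987). Ms4a4d was nearest to Tns1, which encodes tensin (r = 0.998, rho = 0.986, within groups 0.835), and Itpr2, an intracellular calcium channel (r = 0.998). Ms4a4b was nearest to Cytip (r = 0.997, rho = 0.979, within groups 0.797) and to Dock8, both known from leukocytes (r = 0.993 for Dock8).

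Ms4a4c was nearest to the interferon-inducible genes Bst2 (r = 0.984, rho = 0.965, within groups 0.953), Rtp4 (r = 0.983) and Oasl2 (r = 0.983). Ms4a6b and Ms4a6c both had Pld4 first (r = 0.992 and 0.977, rho = 0.930 and 0.860, within groups 0.922 and 0.960), and Ms4a6b had Fcer1g second (r = 0.985). The within-group values of Ms4a4c, Ms4a6b and Ms4a6c lean on wild type air replicate 1. Their SD in wild type air was 0.73, 0.31 and 0.47, against at most 0.21, 0.11 and 0.09 in any other group. These correlations were not computed without that array. Ms4a6d was nearest to Adgre1, an adhesion receptor gene used as a macrophage marker (r = 0.962, rho = 0.888, within groups 0.677). Ms4a7 was nearest to Tnfaip8 (r = 0.973, rho = 0.888, within groups 0.896), then to the scavenger receptor Msr1 (r = 0.971) and the complement gene C1qb (r = 0.967). Ms4a4a was nearest to the heparanase gene Hpse (r = 0.914, rho = 0.874, within groups 0.310) and the macrophage protein gene Cd5l (r = 0.911). The dim Ms4a2 reached r = 0.877 with Trim30d (rho = 0.783, within groups 0.720).

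Among the members themselves, Ms4a6b and Ms4a6c were the closest pair (r = 0.988, rho = 0.909, within groups 0.930). Their within-group value again leans on wild type air replicate 1. Ms4a1 and Ms4a4d followed each other with r = 0.935 and rho = 0.874, and Ms4a4a and Ms4a7 with r = 0.803 and rho = 0.741. Ms4a1 and Ms4a7 had a negative correlation (r = -0.734, rho = -0.413). Wild type smoke was lowest in Ms4a1 and highest in Ms4a7. The remaining group means rose in the same order in both genes, from wild type air to deficient smoke to deficient air. The neighbours Ms4a4b and Ms4a4c, with 20 shared upstream bases, had r = 0.884 and rho = 0.846 over all arrays but 0.287 within groups. Probe sequences of these close relatives were not used here, so binding of 1 gene's RNA to another's probes was not tested.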

How the data were processed

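Log2 expression values of 34760 probe sets on 12 arrays are the authors' deposited values, made with RMA in Affymetrix Expression Console, per the submitters' processing notes. Neither the software version nor an annotation build is given in the sources used here. Of 22961 annotated probe sets, 21640 named 1 gene and were kept, the brightest per gene (19937 genes).

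The limma model held a mean for each group and all 12 arrays (residual df 8, prior df 4.83). Differences carry moderated standard errors. Tests were 2-sided, with Benjamini-Hochberg adjustment over all genes of a comparison and a limit of 0.05. The members and the 13 marker lists (149 of 162 genes measured) were chosen with earlier results of these data known. Named were all members and the other 9 Ms4a genes, with a part of the further genes set out for naming. Those were up to 4 passing genes per list and comparison, receptor partners, Rela and the top 3 likenesses per member. Mast cell and basophil genes called between genotypes under smoke are named as well. The fit was tested on simulated data. Tests ran in limma 3.58.1 under R 4.3.3, and plots were drawn with matplotlib 3.10.9 under Python 3.11.15. Precision is limited by how few arrays there are.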

Additional observations from a re-analysis of the deposited data

Results flagged for a closer look

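The smoke difference in deficient minus that in wild type arrays, the limma interaction term, is listed here for the 8 members called (14.6% of all genes were, 8.89% with a positive and 5.70% with a negative value). Since the members were chosen by their levels in these groups, the values describe them, carry no p-value and test nothing. It was positive for Ms4a1 (1.00) and Ms4a4d (2.09) and negative for Ms4a2 (-0.51), Ms4a4a (-2.47), Ms4a6b (-1.67), Ms4a6c (-1.97), Ms4a6d (-1.55) and Ms4a7 (-1.28). In Ms4a4a, Ms4a6b, Ms4a6c and Ms4a6d every smoke array lay above every air array in wild type hosts and below it in deficient hosts. Ms4a4b at 0.08 was not called, and Ms4a4c at -0.93 was called without wild type air replicate 1 (-1.35).

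Genes outside the family that are named above differed in the same term. Among macrophage and Fc receptor genes it was -1.21 for Csf1r (adjusted p = 1.98e-07, limma), -0.93 for Mrc1 (3.37e-04), -1.45 for Folr2 (5.95e-05), -1.30 for Fcer1g (2.04e-05) and -0.60 for Fcer1a (0.00432). It was 0.45 for Cd79b (0.0431) and 0.61 for Cd3g (0.00198). The interferon-inducible genes Ido1 and Ly6i had -1.79 (7.43e-05) and -1.07 (0.0123). Cyp2f2 and Tek had 5.22 (1.24e-11) and 2.66 (1.57e-09).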

How the results depend on the processing

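No difference of a member called in the fit changed sign under any of up to 20 other settings. Of 985 member values 966 moved by less than 1 SD between arrays, but many of them could not move. The intensity filter, averaging of probe sets, the intensity trend, the replicate block and the 6 compared arrays alone leave a member's difference unchanged. Leaving out an array outside a comparison does the same, so this number does not measure stability. Of 2242 values of other named genes 78 lost and 27 gained a call. The number of members called stayed within 1.5 times in every comparison except smoke in deficient hosts, where leaving out 1 array gave 3 to 7 in place of 6, with 3 without deficient air replicate 3. There Ms4a4b lost its call without any 1 of the 6 arrays compared or wild type smoke replicate 2, and also with median centring (-0.39), quantile normalization (-0.38) and an intensity trend (-0.41). Calls were lost for Ms4a6c without deficient air replicate 3 or deficient smoke replicate 1 or 3, and Ms4a2 without deficient air replicate 3.

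The members' median for smoke in wild type hosts was 0.91 with the intensity filter, 0.38 with array weights, and 0.45 to 0.90 without 1 array. For smoke in deficient hosts it was -0.63 with the filter and -0.61 to -0.48 without 1 array. For the interaction it was -1.28 with the filter, -0.89 with array weights, and -1.38 to -0.95 without 1 array. For genotype under smoke it was -0.22 with median centring, which moved the median of all genes from -0.14 to -0.28. Centring also changed the share of higher genes among all called from 51.8% to 77.1% for smoke in wild type hosts, from 53.2% to 39.6% for genotype in air, from 38.0% to 22.9% under smoke and from 60.9% to 41.4% for the interaction. The number of all genes called moved too, so the shares given above hold for the main fit. For smoke in wild type hosts 5778 became 3454 with the 6 compared arrays alone, 8824 without wild type smoke replicate 1 and 10211 with array weights. For smoke in deficient hosts 481 became 261 without deficient air replicate 2 or 3 and 1368 with array weights. For the interaction 2909 became 2239 without deficient smoke replicate 2 and 6662 with array weights.

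With the replicate number as a block the members called numbered 8, 6, 10, 7 and 8 in the 5 comparisons, as without it. Deviations of same-numbered arrays from their group means correlated with r from -0.363 to 0.365. Differently numbered arrays were not compared, so these values cannot tell whether the numbers pair the arrays.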
